A study of Homo sapiens with 24 samples.

Results

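Type I interferon response genes were followed across 24 arrays of HCT116, an established human colon cancer line. The set is a list of 48 gene names known from the pathway, and 47 of them were measured among the 18239 genes of the table. The list was chosen with earlier results of these data known, so its shares beside all genes are descriptions and not tests. STAT2 is not analysed here. By role, 7 members sense RNA or assist its sensing, 10 regulate transcription or signalling, 5 belong to the ISG15 conjugation system and 25 are effectors. Each gene was read from its brightest probe set, as a log2 signal made by the authors with RMA. Changes are differences of these log2 signals, and RMA compresses changes of dim genes.

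By its design the study asks whether estrogen receptor beta, the product of ESR2, alters the response of colorectal cancer cells to hypoxia. Parental HCT116 cells (genotype WT in the labels) and HCT116 cells with lentiviral ESR2 were each kept in normoxia or hypoxia, without or with 10 nM 17β-estradiol, which gives 8 groups of 3 arrays. ESR2 cells carry full-length ESR2 with an N-terminal HaloTag in a vector that also encodes GFP and puromycin resistance. They were infected repeatedly and selected with puromycin, and the labels name no clone. For hypoxia, a mixture of nitrogen and carbon dioxide was flushed through the incubator. Cells that received estradiol were kept in stripped serum without phenol red. The sources used here give no vector control, so ESR2 and the transduction cannot be told apart, and they state neither the medium of the other groups nor how long hypoxia lasted. Whether the 3 samples of a group came from separate cultures is not stated in the labels. Every p-value therefore rests on the spread of these samples, part or all of which may be technical, and 3 arrays per group limit the precision.

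Cells detect foreign or misplaced RNA with sensors such as IFIH1 (MDA5) and RIGI, which signal through MAVS to the factors IRF3 and IRF7 and to NF-kB. These switch on the interferon genes. Secreted interferon binds its receptor, and a complex that contains IRF9 then activates many genes through the interferon-stimulated response element (ISRE) in their promoters. IRF1 is induced mainly through the gamma-activated site (GAS) and acts on elements that overlap the ISRE. Some members, among them the IFIT genes and ISG15, can also be activated by IRF3 directly, without interferon.

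The promoters of the members carry these elements. RefSeq windows of GRCh38.p14, from 250 bases before to 50 bases after a transcript start, were held for 36 of the 47 members. The ISRE core (GAAA, any 2 bases NN, then GAAA), searched on both strands, was present in 26 of these 36 genes (72.2%), against 4.38% of 27305 genes. The GAS core TTCNNNGAA, which reads the same on both strands and can overlap an ISRE, was present in 13 of the 36 (36.1%), against 9.38% of all genes. By role, an ISRE core was found in 4 of 5 sensors, 4 of 7 regulators, 2 of 4 conjugation genes and 16 of 20 effectors with a window. A match is a description of the letters and not a bound site. Not held were windows of IFIT2, DHX58, MX2, OAS2, OASL, IFITM2, IRF2, IRF3, IRF7, USP18 and TRIM22.

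The stretches below lie directly before the start of 5 members that led comparisons and of ISG15, shown as the modifier of the conjugation system. They are printed 5′ to 3′ on the gene's strand with the motif in capitals. IFIT1 (chr10:89392463-89392622, plus strand), IFIT3 (chr10:89332369-89332528, plus strand), IFIH1 (chr2:162318685-162318844, minus strand), IFI6 (chr1:27672193-27672352, minus strand) and ISG15 (chr1:1013337-1013496, plus strand) show the ISRE. IRF1 (chr5:132490774-132490933, minus strand) shows the GAS instead, with no ISRE core in its window.
IFIT1: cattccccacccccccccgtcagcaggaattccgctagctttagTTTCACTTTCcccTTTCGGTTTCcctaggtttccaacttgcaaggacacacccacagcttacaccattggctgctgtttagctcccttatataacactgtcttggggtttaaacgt
IFIT3: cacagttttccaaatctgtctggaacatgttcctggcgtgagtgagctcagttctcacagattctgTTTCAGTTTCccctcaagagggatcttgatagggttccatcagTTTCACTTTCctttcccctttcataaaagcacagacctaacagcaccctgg
IFIH1: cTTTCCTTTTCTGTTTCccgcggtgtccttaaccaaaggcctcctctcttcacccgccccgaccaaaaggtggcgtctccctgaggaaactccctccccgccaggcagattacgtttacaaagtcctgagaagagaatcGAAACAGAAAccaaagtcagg
IFI6: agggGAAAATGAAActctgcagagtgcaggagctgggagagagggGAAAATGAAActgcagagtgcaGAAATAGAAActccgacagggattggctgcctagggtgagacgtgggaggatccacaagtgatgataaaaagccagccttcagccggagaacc
ISG15: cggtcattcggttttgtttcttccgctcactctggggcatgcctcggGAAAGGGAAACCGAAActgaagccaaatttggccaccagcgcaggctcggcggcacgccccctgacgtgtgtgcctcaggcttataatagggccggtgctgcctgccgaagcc
IRF1: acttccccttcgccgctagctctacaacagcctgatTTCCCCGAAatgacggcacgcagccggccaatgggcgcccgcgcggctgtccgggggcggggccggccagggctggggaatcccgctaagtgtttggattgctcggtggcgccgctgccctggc
The ISRE cores begin 116 and 103 bases before the start of IFIT1, and 94 and 51 bases before the IFIT3 start shown. Another listed IFIT3 window (chr10:89327747-89328046) also holds 2 ISRE cores. IFIH1 has 3, at 159, 153 and 21 bases, of which the first pair overlaps. IFI6 has 3 separate cores, at 156, 115 and 93 bases, and ISG15 has 2 that overlap, at 113 and 107 bases. The GAS of IRF1 begins 124 bases before its start.

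PARP9 and DTX3L, which encode partners of one complex, stand head to head and share a single ISRE core. It lies at chr3:122564332-122564341, beginning 41 bases before a PARP9 start and 6 bases before the DTX3L start. Another listed PARP9 window (chr3:122564735-122565034) holds no ISRE or GAS core. The shared core is printed on the PARP9 strand with 10 bases on each side (chr3:122564322-122564351).
PARP9: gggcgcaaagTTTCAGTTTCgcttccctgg

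Arrays of a group were alike, with 1 exception. The lowest correlation within a group was 0.988, for replicate 2 of parental normoxia without estradiol. This array also stood apart in its 3′ to 5′ index, the signal of 3′ minus 5′ controls and a sign of RNA or labelling length, at 4.34 log2 units against 2.60 to 2.65 on the other arrays of its group. In the other groups this index lay between 2.00 and 3.10, except in hypoxic ESR2 cells with estradiol, where it was 3.42 to 4.01. It averages the actin, dap and thr controls and leaves out GAPDH. The GAPDH difference was -0.01 to 0.07 in hypoxic ESR2 cells with estradiol and -0.22 to -0.12 without it. No arrays held identical values. ESR2 itself read 3.28 to 3.56 on the parental arrays and 3.92 to 4.89 on those of ESR2 cells, without overlap. In ESR2 cells without estradiol it read 4.89, 4.03 and 4.63 in normoxia and 4.08, 3.96 and 4.17 in hypoxia. With estradiol it read 4.48, 4.35 and 4.41 in normoxia and 3.95, 3.93 and 3.92 in hypoxia. Of 8 colon epithelial markers, EPCAM, KRT8, KRT18, KRT19 and CDH1 lay above the median gene, while VIL1 and CEACAM5 were among the dimmest 33.3% of genes. Of 9 leukocyte markers, PTPRC, CD14, LYZ, CLEC4C and LILRA4 were among the dimmest 33.3% of genes and HLA-DRA and CD68 lay above the median. Their mean was 3.59 to 3.80 in 7 groups and 4.13 to 4.21 in hypoxic ESR2 cells with estradiol.

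The mean over the 47 members was 5.43 to 5.61 on the arrays of parental normoxia without and with estradiol, 5.58 to 5.61 in parental hypoxia, 5.76 to 5.80 in normoxic ESR2 cells, 5.72 to 5.83 in hypoxic ESR2 cells without estradiol and 6.02 to 6.03 with it. This mean is a description with no test, and hides members that moved in opposite directions. The range of a member over the arrays ran from 0.39 to 3.11, the widest being that of IFIT2, with a median of 0.95. 8 members were among the dimmest 33.3% of genes: MX1, MX2, OAS1, RSAD2, DDX60, SAMD9, BST2 and EPSTI1. No filter was applied, so all 47 measured members were tested.

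**Figure D1:**
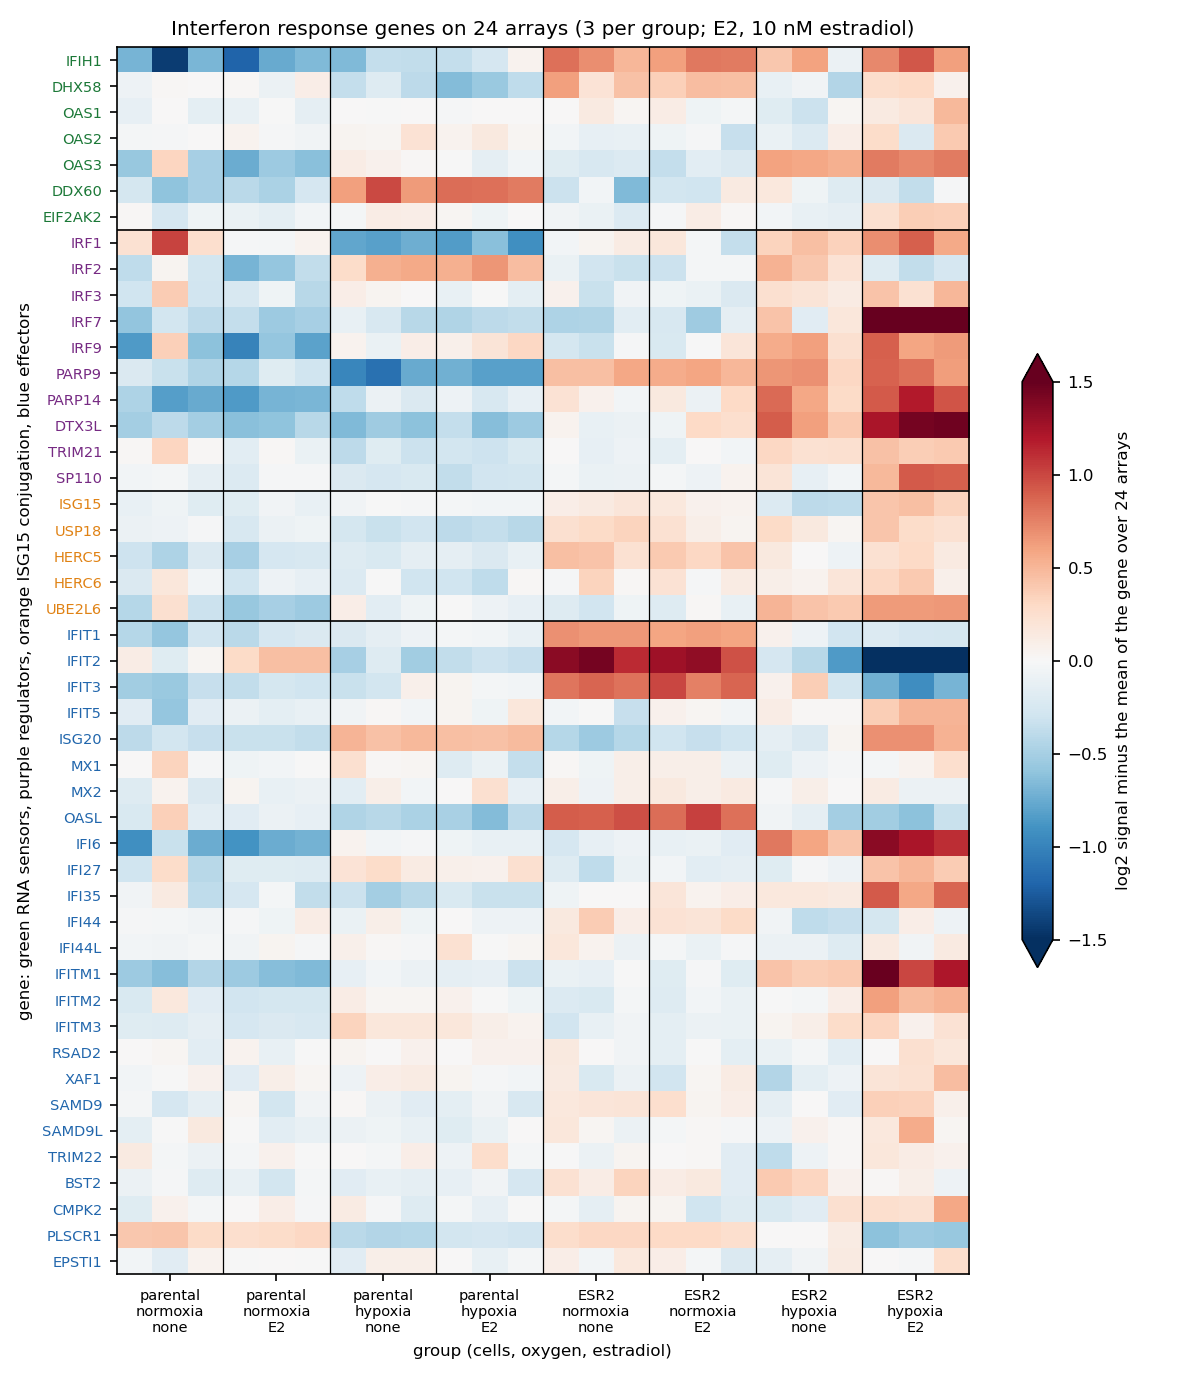
Signal of the 47 members (rows, by role) on 24 arrays (columns, 3 per group), as log2 signal minus the gene's mean over the arrays; colours saturate at 1.5 in either direction, and E2 is 10 nM estradiol. IFIT1, IFIT2, IFIT3 and OASL are high in normoxic ESR2 cells, and IRF7 is high on the 3 arrays of hypoxic ESR2 cells with estradiol.

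In normoxia without estradiol, interferon response genes were higher in ESR2 cells than in parental cells. 16 members were higher and 1 was lower at an adjusted p under 0.05, by limma with Benjamini-Hochberg adjustment over 18239 genes. That is 36.2% of the members, against 18.6% of all genes; 9.76% of all genes were higher and 8.86% lower. The median change was 0.11 over the members and -0.01 over all genes. Higher were 2 of 7 sensors, 3 of 10 regulators, 3 of 5 conjugation genes and 8 of 25 effectors. Of the 16 higher members 12 have a promoter window, and 12 of these hold an ISRE core. Of the members that did not pass, 14 of the 23 with a window hold it. With estradiol, on separate arrays, the same comparison gave 10 of 13 higher members and 16 of 23 that did not pass. Hypoxia in parental cells without estradiol gave 10 of 10 higher members and 13 of 21 that did not pass. Differences between these shares were not tested. With the spread taken from the compared groups alone, 11 members passed, all of them higher, and 5.82% of all genes did.

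The largest rise was that of IFIH1, the cytosolic sensor of long double-stranded RNA. Its signal was 4.67, 3.94 and 4.68 on the parental arrays and 6.19, 6.06 and 5.86 on those of ESR2 cells. The groups were far apart, and the change was 1.61 (SE 0.18, limma adjusted p = 1.42e-06). Another, dimmer probe set of IFIH1 read -0.10 in this comparison and did not pass. DHX58 (LGP2), which assists IFIH1, rose by 0.44. OAS1, OAS2 and OAS3, oligoadenylate synthetases that activate RNase L, did not pass, with changes of 0.15, -0.08 and 0.04, nor did the kinase EIF2AK2 (PKR), at -0.02.

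Of the 4 IFIT effectors, which bind viral RNA and restrict its translation, IFIT1, IFIT2 and IFIT3 rose. IFIT2 read 5.58, 5.30 and 5.51 on the parental arrays and 6.84, 6.92 and 6.60 on those of ESR2 cells, a change of 1.32 (SE 0.13, limma adjusted p = 1.06e-07). IFIT3, which stabilises IFIT1, went from 4.38, 4.35 and 4.56 to 5.70, 5.77 and 5.71. Its change was 1.30 (SE 0.12). IFIT1 went from 8.43, 8.28 and 8.57 to 9.54, 9.51 and 9.50, a change of 1.09 (SE 0.08, limma adjusted p = 2.22e-09). In each of these genes the lowest ESR2 array lay above the highest parental one. IFIT5 did not pass on its brightest probe set, at 0.18, while a dimmer probe set rose by 0.53.

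OASL, an OAS relative that enhances RIGI signalling, rose by 0.93. It read 6.03, 6.62 and 6.10 on the parental arrays, where the high value is that of replicate 2, and 7.16, 7.15 and 7.22 on those of ESR2 cells. IFI6, a mitochondrial and endoplasmic reticulum protein, rose by 0.51, IFITM1, a membrane protein that blocks viral entry, by 0.46, and BST2 (tetherin) by 0.33. Of the 4 probe sets of BST2 only the brightest passed, and the lowest change among them was -0.12. SAMD9 rose by 0.32. The effectors that define the response in many cell types, MX1, MX2, RSAD2 and IFI44L, read between 2.51 and 3.96 on these 6 arrays and did not pass, with changes of -0.10, 0.16, 0.07 and 0.09.

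Among regulators, PARP9 rose by 0.82 (SE 0.10), PARP14 by 0.76 and DTX3L by 0.42. PARP9 and PARP14 are ADP-ribosyltransferases and DTX3L is the ubiquitin ligase partner of PARP9. PARP9 read 4.62, 4.50 and 4.37 on the parental arrays and 5.28, 5.27 and 5.41 on those of ESR2 cells. With all probe sets of a gene averaged, the rises of PARP9, PARP14 and IFIH1 were 0.40, 0.23 and 0.76. IRF1 was the lower member, at -0.45, but replicate 2 of parental normoxia was high (6.65, against 5.87 and 5.89). Without that array 17 members were higher and 0 lower, counts not set against all genes. IRF3, IRF7 and IRF9 did not pass, at -0.04, 0.07 and 0.17.

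In the ISG15 system, whose ubiquitin-like modifier is attached to proteins during the response, the ligase HERC5 rose by 0.70 (SE 0.08). Its parental arrays read 7.53, 7.37 and 7.62 and its ESR2 arrays 8.29, 8.26 and 8.07. USP18, which removes ISG15 and dampens the receptor, rose by 0.34 and ISG15 by 0.26. HERC6 (0.14) and the conjugating enzyme UBE2L6 (-0.01) did not pass.

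**Figure D2:**
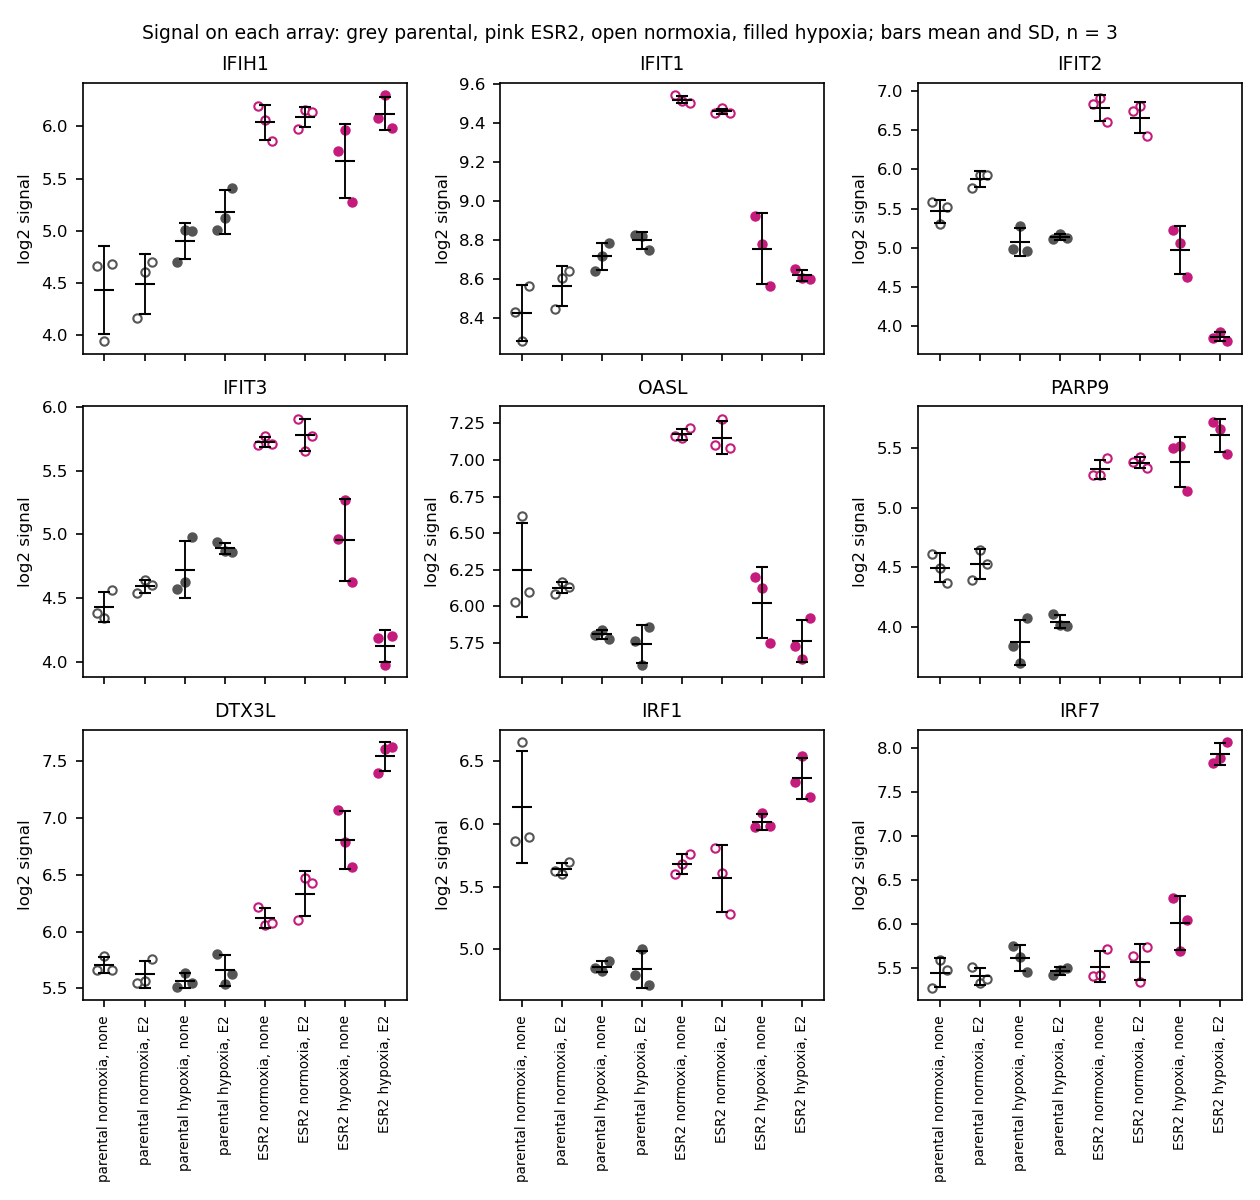
Log2 signal of 9 members on each array by group; grey is parental, pink ESR2, open circles normoxia and filled circles hypoxia, with bars at the mean and SD of 3 arrays. IFIT1, IFIT2, IFIT3 and OASL are highest in the normoxic ESR2 groups, while IRF7 reaches 7.83 to 8.07 only in hypoxic ESR2 cells with estradiol.

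The chemokine CXCL10, a marker of interferon signalling outside the list, was high in the same groups as the IFIT genes. It read 4.32, 4.42 and 4.27 on the arrays of parental normoxia and 6.57, 6.71 and 6.24 in normoxic ESR2 cells, 2.17 higher (SE 0.13, adjusted p = 9.56e-11 by limma). In normoxic ESR2 cells with estradiol it read 6.32, 6.90 and 6.69. In hypoxic ESR2 cells it read 4.69, 4.35 and 4.16, around the 4.26 to 4.51 of the 12 parental arrays. The fall under hypoxia in ESR2 cells was -2.11 (SE 0.13), against 0.10 in parental cells, which did not pass. The interaction was -2.21 (SE 0.19, limma adjusted p = 6.03e-09).

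The interferon genes themselves read dim. Of 6 measured interferon genes, IFNB1 rose by 0.45 and IFNL1 by 0.41 in normoxic ESR2 cells, and IFNA2, IFNE, IFNG and IFNK did not pass. IFNB1 read 2.49, 2.82 and 2.75 on the parental arrays and 2.90, 3.35 and 3.16 on those of ESR2 cells. IFNL1 read 2.92, 2.86 and 2.70, and 3.32, 2.94 and 3.46. Neither gene's groups overlap, but the lowest ESR2 array lies close to the highest parental one, 2.94 beside 2.92 for IFNL1. Under hypoxia in ESR2 cells IFNB1 fell by 0.38 and IFNL1 by 0.49. Their interactions were -0.44 and -0.60, both past the threshold.

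Of 33 further interferon-stimulated genes measured, 6 were higher and 0 lower in normoxic ESR2 cells, among them NMI (0.78), TRIM5 (0.86), CXCL11 (0.79) and CCL5 (0.38). This share, 18.2%, is close to the 18.6% of all genes. Of 14 genes of nucleic acid sensing and signalling 2 were higher, RIGI (0.74) and the kinase TBK1 (0.41), and 3 were lower. Of 9 receptor and kinase genes 1 was higher and 4 were lower, among them IFNAR2 (-0.36), a subunit of the type I receptor, and IFNLR1 (-0.31), a subunit of the lambda receptor. Of 4 feedback genes 1 was lower, the phosphatase PTPN2 (-0.22).

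**Figure D3:**
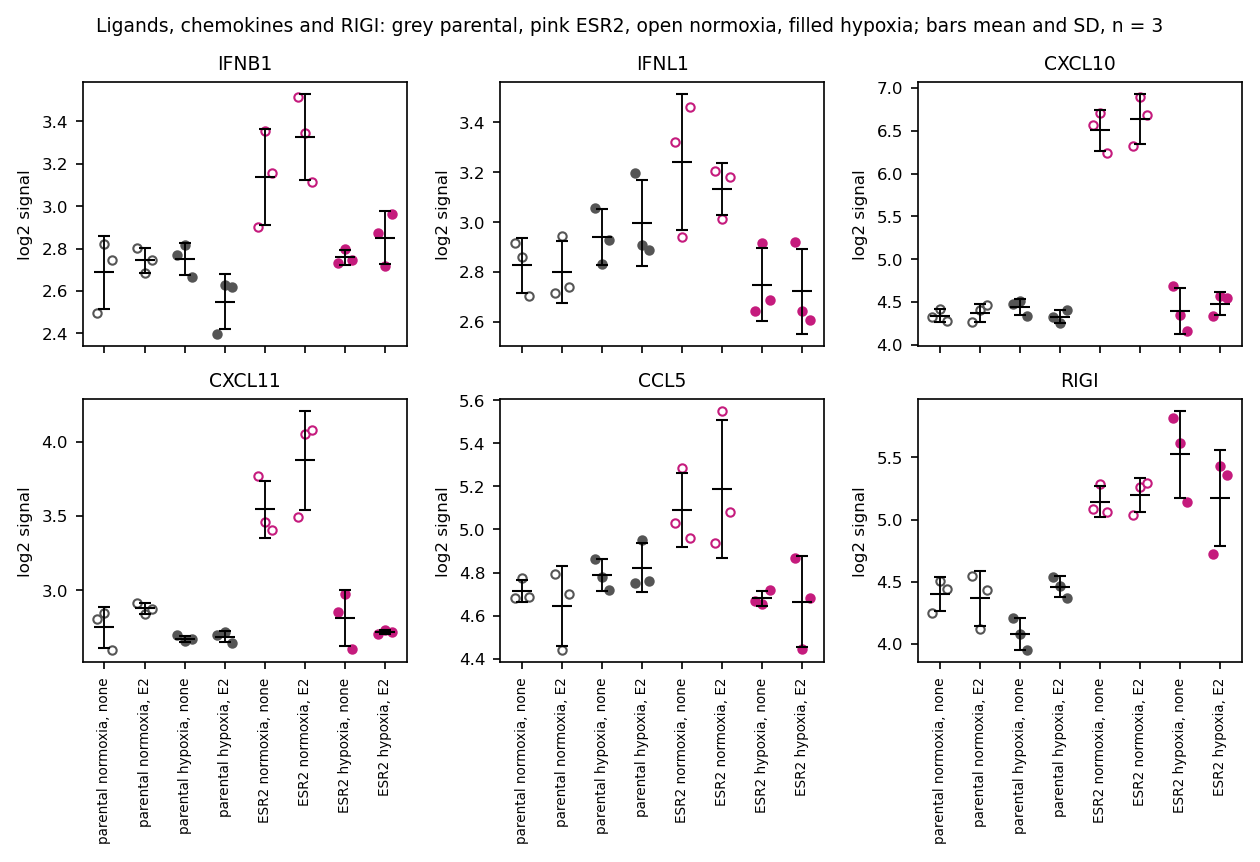
Log2 signal of IFNB1, IFNL1, 3 chemokines and the sensor RIGI on each array by group, drawn as for the members, with bars at the mean and SD of 3 arrays. CXCL10 is at least 6.24 on the 6 arrays of normoxic ESR2 cells and at most 4.69 on the other 18, while RIGI stays above the parental arrays in hypoxic ESR2 cells as well.

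Hypoxia moved the members in parental cells in both directions. Without estradiol 11 were higher and 9 lower, 42.6% of the members against 37.5% of all genes, a share near the background. The median change was 0.09, against 0.00 over all genes. Sensors passed as 2 higher and 1 lower, regulators as 2 and 3, conjugation genes as 0 and 1, and effectors as 7 and 4. Quantile normalization of the table again gave 15 higher and 8 lower, counts not set against all genes.

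IRF1, an activator of the response, fell most. It read 5.87, 6.65 and 5.89 on the arrays of parental normoxia and 4.86, 4.83 and 4.91 in hypoxia. The hypoxic arrays were close together and lay below each normoxic one, with a change of -1.27 (SE 0.15, limma adjusted p = 1.73e-07). Without the high normoxic array the change was -1.01, and averaged over its 4 probe sets it was -0.53. IRF2, which opposes IRF1 at its sites, rose by 0.66 (SE 0.11), from 5.27, 5.69 and 5.38 to 5.92, 6.18 and 6.22. PARP9 fell by 0.62 and TRIM21, a ubiquitin ligase and antibody receptor, by 0.41, while PARP14 rose by 0.45. With the mean of its probe sets PARP9 no longer passed, at -0.15. Of the 6 probe sets of PARP14 only the brightest passed, and the lowest change among them was -0.14.

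The helicase DDX60 rose by 1.20 (SE 0.14, limma adjusted p = 2.34e-07), from 3.21, 2.87 and 2.99 to 4.09, 4.47 and 4.12. ISG20, an RNA exonuclease, rose by 0.82 (SE 0.07), from 6.83, 6.95 and 6.88 to 7.73, 7.66 and 7.71. PLSCR1, a phospholipid scramblase, fell by 0.79 (SE 0.05), although 1 of its 6 probe sets rose. IFI6 rose by 0.66, IFITM1 by 0.46, IFITM3 by 0.39, IFI27 by 0.35, IFIT1 by 0.29 and IFIT5 by 0.29. IFITM1, IFITM2 and IFITM3 are near-identical copies whose probes may read each other. IFIT2 fell by 0.39, OASL by 0.44 and IFI35 by 0.31. The dimmer probe sets of IFIT2 and IFIT5 went the other way, at 0.30 and -0.25, and did not pass. IFIH1 rose by 0.47 (limma adjusted p = 0.0467), a call that was lost without replicate 2 of parental normoxia (0.23, adjusted p = 0.347) and under several other settings.

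In ESR2 cells hypoxia without estradiol gave 12 higher and 10 lower members, 46.8% against 32.6% of all genes, with a median change of 0.02 against -0.06 over all genes. Regulators passed as 6 higher and 0 lower, effectors as 4 higher and 7 lower, conjugation genes as 1 and 2, and sensors as 1 and 1, beside 14.4% higher and 18.2% lower over all genes; the roles were not tested against each other. Of the 10 lower members 7 have a promoter window, and all 7 hold an ISRE core, as do 8 of the 10 higher members with a window.

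IFIT2 fell most, from 6.84, 6.92 and 6.60 in normoxic to 5.22, 5.06 and 4.63 in hypoxic ESR2 cells. The change was -1.82 (SE 0.13, limma adjusted p = 1.38e-10), a 3.52-fold fall. OASL fell by 1.15 (SE 0.12), to 6.20, 6.13 and 5.75. IFIT3 fell by 0.78 to 4.96, 5.27 and 4.62, and IFIT1 fell by 0.76 to 8.92, 8.78 and 8.56. The hypoxic values of each lay below all 3 normoxic ones. DHX58 fell by 0.63, IFI44 by 0.47, ISG15 by 0.46 and HERC5 by 0.34. These comparisons share the normoxic ESR2 arrays with those of ESR2 against parental cells in normoxia.

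Among regulators of the same cells, DTX3L rose by 0.69 (SE 0.11), from 6.22, 6.06 and 6.08 to 7.08, 6.79 and 6.57. IRF9, the DNA-binding subunit of the interferon-activated complex, rose by 0.68 (SE 0.20), IRF2 by 0.61, IRF7 by 0.50, PARP14 by 0.49 and TRIM21 by 0.33. The call of IRF9 was lost without replicate 2 of hypoxic ESR2 cells (0.60, limma adjusted p = 0.0510). IRF1 did not pass, at 0.33. The sensor OAS3 rose by 0.79, IFI6 by 0.75 and the ISG15-conjugating enzyme UBE2L6 by 0.63. Averaged over probe sets IRF9 stood at 0.29 and OAS3 at 0.51.

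The interaction asks directly whether hypoxia changed a gene differently in ESR2 and in parental cells. Without estradiol 18 members passed, 7 with a higher and 11 with a lower change in ESR2 cells, 38.3% against 30.7% of all genes. Regulators passed as 4 higher and 0 lower, effectors as 2 and 7, sensors as 0 and 2, and conjugation genes as 1 and 2. IRF1 had the largest, at 1.60 (SE 0.21, limma adjusted p = 2.64e-06), from a fall in parental cells and 0.33 in ESR2 cells, and it was 0.71 when its probe sets were averaged. IFIT2 followed at -1.43 (SE 0.18), then IFIT3 at -1.07 and IFIT1 at -1.05. IFIT1 rose under hypoxia in parental cells and fell in ESR2 cells. TRIM21 fell in parental cells and rose in ESR2 cells, with an interaction of 0.74. DDX60 (-0.89), IFIH1 (-0.84) and DTX3L (0.83) also passed; that of IFIH1 was -0.43 averaged over its probe sets and was lost without replicate 3 of hypoxic ESR2 cells (-0.64, limma adjusted p = 0.0543).

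**Figure D4:**
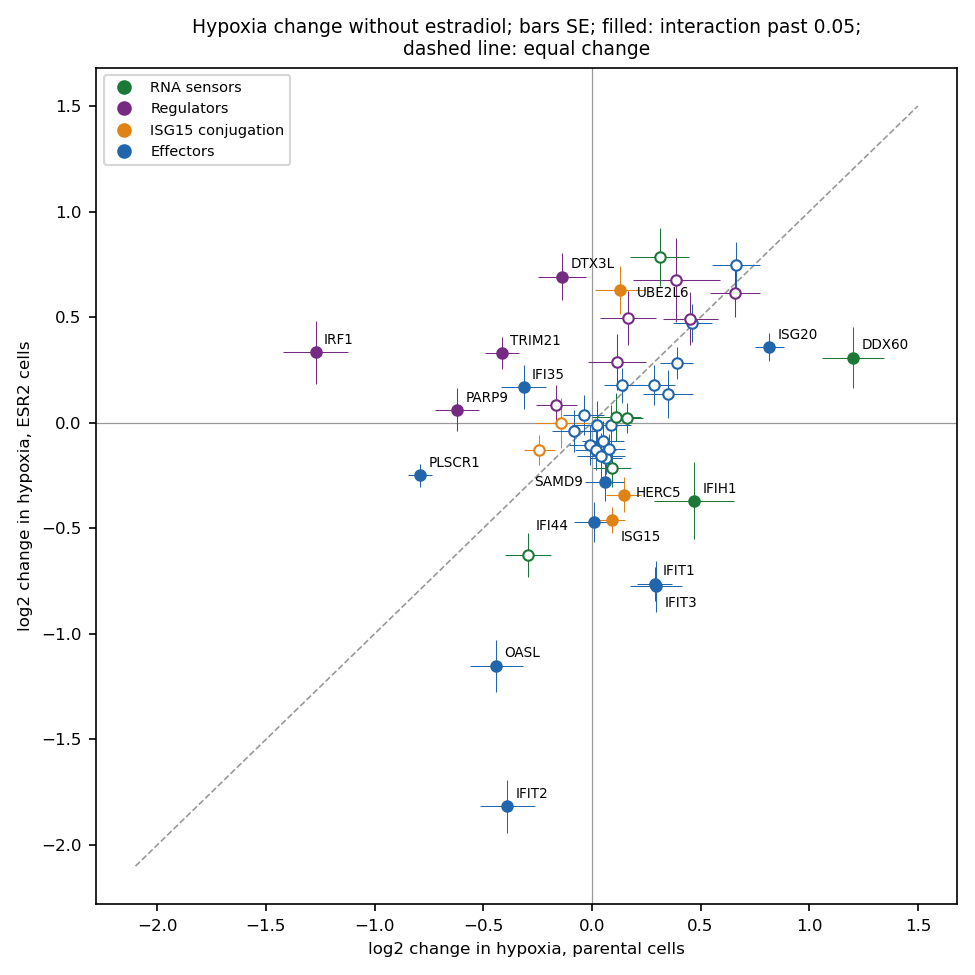
Change of each of the 47 members under hypoxia without estradiol in parental cells (horizontal axis) and in ESR2 cells (vertical axis), in log2 units with bars of 1 SE; filled points passed the interaction test and the dashed line marks equal change. IFIT2, OASL, IFIT1 and IFIT3 lie below the line and IRF1, DTX3L and TRIM21 above it.

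The responses to hypoxia in parental and in ESR2 cells share no arrays. 10 members passed in the same direction in both, which is 50% of the 20 called in parental cells and 45.5% of the 22 called in ESR2 cells. Over all genes the shares were 41.4% and 47.7%. IFIT1 and TRIM21 passed in opposite directions. IFI6, IFITM1 and ISG20 were among effectors that rose in both cell types.

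Within hypoxia without estradiol, ESR2 cells had 17 members higher and 4 lower than parental cells, 44.7% against 40.4% of all genes (20.4% higher), with a median change of 0.09 against -0.06. Regulators made up 7 of the higher members and none of the lower ones, effectors 5 and 2, conjugation genes 3 and 1, and sensors 2 and 1. With arrays centred on their medians the split was 15 higher and 12 lower, counts not set against all genes. PARP9 read 3.85, 3.70 and 4.07 in parental and 5.50, 5.51 and 5.14 in ESR2 cells, a change of 1.51 (SE 0.10, limma adjusted p = 4.11e-11). DTX3L, which shares its ISRE core, went from 5.51, 5.64 and 5.55 to 7.08, 6.79 and 6.57, a change of 1.24 (SE 0.11). IRF1 was higher by 1.15, at 5.98, 6.09 and 5.98, and PARP14 by 0.80. With the mean of probe sets the changes of PARP9, IRF1 and PARP14 were 0.58, 0.47 and 0.35, and 1 dimmer probe set of IRF1 was lower.

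On their brightest probe sets the IFIT genes did not pass between hypoxic ESR2 and parental cells. The changes were 0.04 for IFIT1, -0.11 for IFIT2 and 0.23 for IFIT3, with SEs of 0.08, 0.13 and 0.12. IFIT5 stood at 0.07, while its dimmer probe set was higher by 0.69. OASL stood at 0.22. IFIH1 was higher by 0.77, or 0.32 averaged over its probe sets, of which the dimmer stood at -0.12 and did not pass. RIGI was higher by 1.45 (SE 0.16). Lower in ESR2 cells were DDX60 by -0.78, ISG20 by -0.58, ISG15 by -0.30 and IFI27 by -0.29. In normoxia and in hypoxia, which share no arrays, 9 members were called in the same direction, 52.9% of 17 and 42.9% of 21, against 38.2% and 17.6% over all genes. ISG15 and IRF1 were called in opposite ones.

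Of the 33 further interferon-stimulated genes, hypoxia gave 3 higher and 8 lower in parental cells (33.3%, against 37.5% of all genes), and 5 higher and 8 lower in ESR2 cells (39.4%, against 32.6%). Of the 14 sensing and signalling genes 3 were higher and 4 lower in parental cells, and 3 higher and 2 lower in ESR2 cells. SP100, a nuclear body protein, rose by 1.32 in parental cells and LAP3, a peptidase, fell by 0.90. JUN, which joins the factors at the IFNB1 enhancer, rose by 1.31 in parental and by 1.71 in ESR2 cells. The ubiquitin ligase TRIM25, which activates RIGI, fell by 0.91 in parental cells and had an interaction of 1.12, and RELA, a subunit of NF-kB, fell by 0.83 with an interaction of 0.83. ATF2 rose by 1.35 in parental cells and had an interaction of -1.17.

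Estradiol was without a called member in 3 of its 4 settings. In normoxic parental, hypoxic parental and normoxic ESR2 cells limma called 0 of the 47 members, against 0.011%, 0.0164% (0.00548% higher) and 0% of all genes. At an unadjusted p under 0.05 the counts were 8, 2 and 3 members, and the shares of all genes at this threshold were not counted. The changes ran from -0.49 to 0.41, from -0.32 to 0.28 and from -0.19 to 0.22. The highest and lowest in normoxic parental cells were IFIT2 and IRF1. The interaction of estradiol with ESR2 in normoxia likewise had 0 calls by limma among members and among all genes. At an unadjusted p under 0.05 it had 4 members, again without a count over all genes.

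In hypoxic ESR2 cells estradiol went with 24 higher and 5 lower members, 61.7% against 57.0% of all genes. Higher members made up 51.1% against 35.4% of all genes. The median change was 0.23, against 0.12 over all genes. Sensors passed as 4 higher and 0 lower, regulators as 4 and 1, conjugation genes as 2 and 0, and effectors as 14 and 4. Beside these calls, the 3′ to 5′ index was 3.42 to 4.01 on these arrays and 2.00 to 2.19 on those without estradiol, and the mean of 9 leukocyte markers was 4.13 to 4.21 against 3.65 to 3.77, with PTPRC, CD14, LYZ, CLEC4C and LILRA4 among the dimmest 33.3% of genes. The mean of 3 endothelial markers was 4.41 to 4.60 against 4.16 to 4.29, and that of 7 fibroblast markers, 6 of them among the dimmest, 3.20 to 3.28 against 3.08 to 3.17. That of 8 colon epithelial markers was 7.74 to 7.84 against 7.69 to 7.75. With the index as a covariate 19 members passed, 13 higher and 6 lower, where 37.8% of all genes passed. In such a fit the index slope comes from spread within groups, widest in parental normoxia without estradiol (2.60 to 4.34). The index of the compared groups does not overlap, so this count cannot separate the index from estradiol. The same limit applies to every count below with the index as a covariate. The part of the marker shifts was not tested.

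IRF7, the factor that drives interferon alpha genes, rose most. It read 6.30, 5.69 and 6.04 in hypoxic ESR2 cells without estradiol and 7.83, 7.89 and 8.07 with it. On the other 18 arrays it lay between 5.27 and 5.75. The change was 1.92 (SE 0.13, limma adjusted p = 2.18e-11), a 3.78-fold rise, and its interaction with ESR2 was 2.07 (SE 0.18). IFITM1 rose by 0.84, SP110, a nuclear body protein, by 0.75, ISG20 by 0.74, ISG15 by 0.73 and DTX3L by 0.73. ISG15 read 10.45, 10.27 and 10.28 without and 11.07, 11.11 and 11.00 with estradiol.

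Among the IFIT genes, IFIT2 fell by 1.11 (SE 0.13, limma adjusted p = 1.09e-07) to 3.85, 3.92 and 3.81, below every other array of the study. Averaged over its probe sets the fall was -0.62, and the dimmer set alone, at -0.14, did not pass. IFIT3 fell by 0.83 to 4.19, 3.98 and 4.20, and IFIT1 did not pass, at -0.14. IFIT5 rose by 0.42. IRF2 fell by 0.65, PLSCR1 by 0.62 and BST2 by 0.25. CXCL10 stood at 0.08 and did not pass. Among other pathway genes NFKB1 (-0.91), TRIM25 (-1.54) and MAVS (-1.06), the adaptor of the RNA sensors, fell, and the lysosomal thiol reductase IFI30 rose by 0.93.

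The interaction of estradiol with ESR2 in hypoxia passed for 22 members, 18 higher and 4 lower, 46.8% against 42.0% of all genes. After IRF7 its leading members were IFIT2 (-1.17), IFIT3 (-0.999) and IFITM1 (0.96), of which IFIT2 stood at -0.62 averaged over its probe sets. With the index as a covariate 16 members passed, a count not set against all genes. In parental cells the same genes stood at -0.15 (IRF7), 0.06 (IFIT2), 0.17 (IFIT3) and -0.12 (IFITM1) and did not pass.

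With estradiol present, the difference between ESR2 and parental cells in normoxia was again upward. 18 members were higher and 0 lower, 38.3% against 13.7% of all genes (8.45% higher). IFIH1 (1.60), IFIT3 (1.19), OASL (1.02) and IFIT1 (0.89) led, and IFIH1 stood at 0.86 averaged over its probe sets. The arrays are separate from those without estradiol, and 14 members were called in both in the same direction. That is 82.4% of the 17 and 77.8% of the 18, against 50.7% and 69.0% over all genes.

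In hypoxia with estradiol, 31 members were higher and 5 lower in ESR2 cells, 76.6% against 47.7% of all genes (27.8% higher and 19.8% lower). IRF7 (2.47), DTX3L (1.89), PARP9 (1.56) and IRF1 (1.52) led, and IFIT2 (-1.28), DDX60 (-1.02), IRF2 (-0.82), IFIT3 (-0.77) and PLSCR1 (-0.31) were lower. Averaged over probe sets the changes of DTX3L, PARP9 and IRF1 were 1.18, 0.71 and 0.53. All 10 regulators passed, 9 higher and 1 lower, and all 5 conjugation genes were higher. The index was 3.42 to 4.01 on the ESR2 arrays and 2.54 to 2.57 on the parental ones, and the leukocyte marker mean 4.13 to 4.21 against 3.61 to 3.65; the part of the markers was not tested. With the index as a covariate 27 members passed, 22 higher and 5 lower, a count not set against all genes.

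The response to hypoxia with estradiol passed for 14 higher and 7 lower members in parental cells, 44.7% against 34.8% of all genes. DDX60 (1.19), IRF2 (1.10), IRF9 (0.99) and ISG20 (0.80) led, and IRF9 stood at 0.38 averaged over its probe sets. 17 members were called in the same direction as without estradiol, 85.0% of 20 and 81% of 21, near the 80.3% and 86.6% over all genes. In ESR2 cells it passed for 27 higher and 6 lower members, 70.2% against 52.3% of all genes (29.6% higher and 22.6% lower), led by IFIT2 (-2.80), IRF7 (2.36), IFIT3 (-1.66) and OASL (-1.39). Here the index was 3.42 to 4.01 in hypoxia and 2.34 to 3.03 in normoxia, and the leukocyte marker mean 4.13 to 4.21 against 3.79 to 3.80; the part of the markers was not tested. With the index as a covariate 27 members passed, a count not set against all genes. ISG15 fell without estradiol and rose by 0.31 with it. The interaction of hypoxia with ESR2 in the presence of estradiol passed for 22 members, 13 higher and 9 lower, 46.8% against 38.6% of all genes, led by IRF7 (2.30), IFIT2 (-2.06), IFIT3 (-1.96) and IRF1 (1.60). It uses the same hypoxic ESR2 arrays, and 20 members passed with the index as a covariate, a count not set against all genes. IRF1 stood at 0.67 averaged over its probe sets.

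**Figure D5:**
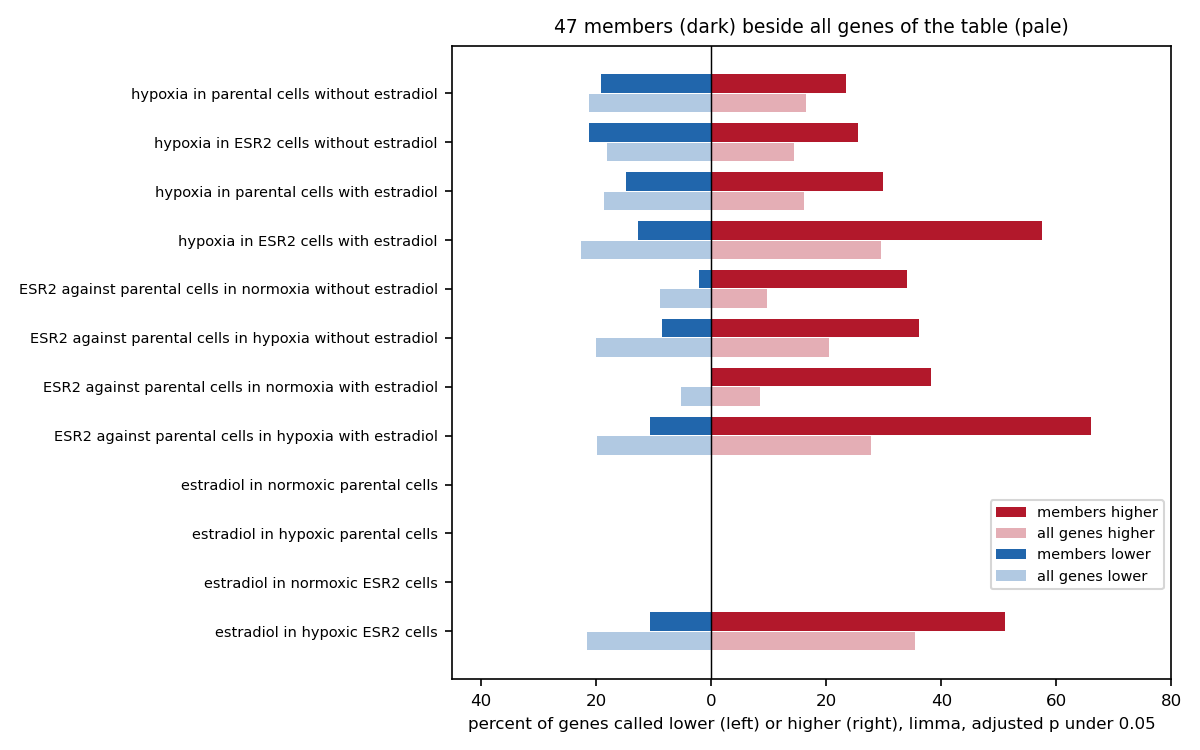
Percent of the 47 members (dark bars) and of all 18239 genes (pale bars) called higher (right) or lower (left) by limma at an adjusted p under 0.05 in 12 comparisons of 2 groups. Members were called higher at a larger share than all genes in every comparison with a called member, those of hypoxia and of ESR2 alike. Bars near 0 mark estradiol in the 3 settings without a called member.

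Across the 4 comparisons of 2 groups without estradiol, IFI6, IFITM1 and PARP14 passed in each. Under hypoxia in parental cells PARP14 passed only on the brightest of its 6 probe sets. 15 members passed in none of them: MX1, MX2, OAS1, OAS2, IFI44L, IFITM2, IRF3, RSAD2, XAF1, HERC6, SAMD9L, TRIM22, EIF2AK2, CMPK2 and EPSTI1. Of these, MX2 and EPSTI1 passed in none of all 12 comparisons of 2 groups. The shares of all genes that passed in each or in none were not counted, and many of these comparisons share arrays. MX1, MX2, OAS1, RSAD2 and EPSTI1 were among the dimmest 33.3% of genes, where RMA compresses changes.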

How the data were processed

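RNA of 24 HCT116 samples was hybridised to Affymetrix arrays. The authors deposited log2 signals per probe set, made with RMA in affy, per the submitters' processing notes; no version of either is stated there. RMA already subtracts background, quantile-normalizes and summarises probes. Of 49386 probe sets, 93 controls were left out; 45253 others name 1 gene symbol, 1327 several and 2713 none in GEO's platform annotation. The brightest probe set by mean over all arrays stood for each of 18239 genes. Of the members 10 rest on probe sets marked as prone to cross-hybridise, among them IFIT3, OASL and IFITM1.

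One limma (3.58.1, R 4.3.3) fit over 8 groups, with 16 residual degrees of freedom, gave 16 comparisons, each Benjamini-Hochberg adjusted over all genes at 0.05. The script was tested on simulated data. Members described in full were the called members with the largest changes, up to 8 per comparison without estradiol and up to 4 with it. Other pathway genes were named by smallest p, up to 4 per comparison, and any others, among them RIGI, the interferon genes, chemokines and receptors, after their values were seen. Members and lists were chosen with earlier results of these data known. Samples with the same replicate number did not deviate together (median correlation -0.013 over 84 pairs, -0.287 to 0.243), so the numbers were not used as pairs. Alternatives covered normalization, probe sets, dim genes, covariates, the samples fitted and each array left out. Scanner files were not used here. Figures were drawn with matplotlib 3.10.9.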

Additional observations from a re-analysis of the deposited data

Results flagged for a closer look

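The members below responded differently in parental and in ESR2 cells by an interaction term in limma. For hypoxia without estradiol 18 members passed, 38.3% against 30.7% of all genes. The interactions were 1.60 for IRF1, -1.43 for IFIT2, -1.07 for IFIT3, -1.05 for IFIT1, -0.89 for DDX60, -0.84 for IFIH1, 0.83 for DTX3L and 0.74 for TRIM21. Averaged over probe sets IRF1 stood at 0.71 and IFIH1 at -0.43. For hypoxia with estradiol 22 passed, 46.8% against 38.6% of all genes, led by IRF7 (2.30), IFIT2 (-2.06), IFIT3 (-1.96) and IRF1 (1.60). Here IRF1 stood at 0.67 averaged over its probe sets. For estradiol in hypoxia 22 passed, 46.8% against 42.0% of all genes, led by IRF7 (2.07), IFIT2 (-1.17), IFIT3 (-0.999) and IFITM1 (0.96). Averaged over its probe sets IFIT2 stood at -0.62. The index of the hypoxic ESR2 arrays with estradiol, 3.42 to 4.01, stands beside these values.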

How the results depend on the processing

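Of the settings run on the named members, 967 kept direction and side of the threshold, 9 lost the call and 0 reversed. Counts of called members moved by over 1.5 times in these cases: estradiol in hypoxic ESR2 cells gave 19 with the 3′ to 5′ index as covariate (37.8% of all genes), against 29, and ESR2 cells in normoxia without estradiol gave 11 with only the compared groups fitted, against 17. Leaving out each array in turn gave 16 to 20 members for hypoxia in parental and 21 to 24 in ESR2 cells, and 18 to 21 and 30 to 31 with estradiol. For ESR2 against parental cells it gave 14 to 17 in normoxia, 18 to 26 in hypoxia, and 13 to 17 and 31 to 34 with estradiol. Estradiol gave 0 to 3 in normoxic parental cells (3 without replicate 1 of parental normoxia), 0 in hypoxic parental and normoxic ESR2 cells, and 25 to 29 in hypoxic ESR2 cells. The interactions gave 16 to 19, 19 to 23, 0 and 20 to 23. With replicate number as a block, 19 members passed for hypoxia in parental cells, 19 for ESR2 in hypoxia, 21 for the interaction of hypoxia with ESR2 under estradiol and 21 for that of estradiol in hypoxia; other counts equalled the unblocked ones. The block ended the call of IFIH1 under parental hypoxia (limma adjusted p = 0.0586). The causes of these shifts were not tested. Counts under other settings that are given without a share of all genes were not set against the background. Dim signals limit MX1, MX2, OAS1, RSAD2 and EPSTI1, and also DDX60, SAMD9 and BST2, whose calls are given above.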
